A study of Mus musculus with 6 samples.

Results

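Antigen presentation genes were examined in bulk RNA-seq of mouse testis cryosections, in 3 libraries from mice with an H3t deletion and 3 libraries from wild-type (WT) mice. The members are the genes whose symbol begins with H2-, the prefix of the mouse major histocompatibility complex (MHC), together with B2m, Tap1, Tap2, Tapbp, Cd74, Ciita, Nlrc5 and Erap1. Such a name was carried by 53 of the 54100 genes counted, and the 29 with at least 10 counts over the 6 libraries were analysed. Of these, 19 were on the class I side and 9 on the class II side. The rule for roles left 1, the pseudogene H2-M6-ps, on neither. H2-K2 and H2-Q5, kept on the class I side, are also annotated as pseudogenes. H3t encodes a histone H3 variant of the testis, and the series was designed to look at Leydig cells, which lie between the tubules and make testosterone, in testes where spermatogenesis is disrupted. The sources used here give no age or strain for either group, nor how the deletion was made. Genotype is the only difference between the groups that the labels give.

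MHC class I molecules present peptides from inside the cell to CD8 T cells and are made by most nucleated cells. Each is a heavy chain paired with beta-2-microglobulin, loaded with peptides that the TAP transporter carries into the endoplasmic reticulum. MHC class II molecules present peptides taken up from outside to CD4 T cells and are made mainly by dendritic cells, B cells and activated macrophages. Their alpha and beta chains assemble on the invariant chain Cd74, and H2-DM later exchanges its remnant for peptide. Interferon gamma raises both classes through the transactivators Nlrc5 for class I and Ciita for class II. The testis is an immune-privileged organ in which germ cells carry little MHC and resident macrophages lie in the interstitium.

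The promoters of 5 members are printed because they span both classes, with 4 genes that were called higher and 1, H2-DMb1, that was not. Each is the 150 bases before the RefSeq start on GRCm38.p6, 5′ to 3′ on the gene's strand, with matches to 3 motifs in capitals. The motifs were the core of the interferon-stimulated response element (GAAA, any 2 bases, GAAA), ATTGG, the Y box (CCAAT on the other strand), and CCNAGNNAC, an X box pattern, and no match overlapped another in these 5. B2m lies at chr2:122147537-122147686 (plus strand), H2-D1 at chr17:35262944-35263093 (plus), H2-Aa at chr17:34287824-34287973 (minus), H2-Eb1 at chr17:34305717-34305866 (plus) and H2-DMb1 at chr17:34153041-34153190 (plus).
B2m: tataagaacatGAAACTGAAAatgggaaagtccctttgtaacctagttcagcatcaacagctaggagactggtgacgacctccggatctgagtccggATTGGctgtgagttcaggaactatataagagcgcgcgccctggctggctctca
H2-D1: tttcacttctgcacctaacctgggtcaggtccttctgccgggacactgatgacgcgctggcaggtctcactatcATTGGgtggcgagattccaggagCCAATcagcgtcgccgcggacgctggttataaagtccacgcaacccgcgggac
H2-Aa: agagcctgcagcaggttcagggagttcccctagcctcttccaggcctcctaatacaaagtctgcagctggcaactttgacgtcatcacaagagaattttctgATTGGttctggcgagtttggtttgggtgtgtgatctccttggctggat
H2-Eb1: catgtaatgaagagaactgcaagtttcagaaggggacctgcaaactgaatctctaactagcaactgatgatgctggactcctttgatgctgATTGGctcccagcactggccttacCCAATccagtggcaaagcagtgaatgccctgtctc
H2-DMb1: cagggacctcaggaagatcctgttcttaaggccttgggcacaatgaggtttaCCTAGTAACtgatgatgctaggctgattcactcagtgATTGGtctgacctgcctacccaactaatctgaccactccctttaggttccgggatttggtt

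Of the 29 members 20 had a RefSeq promoter window of 300 bases. ATTGG was in 18 of these 20 on either strand, against 37.4% of all 32851 windows, and Erap1 and H2-Q10 had none. In 12 members it lay on the gene's strand 40 to 90 bases before the start, in genes of both classes, among them all 5 printed. These limits are the positions of the outermost of those members, H2-Q7 at 40 and H2-DMb2 at 90. The share of all windows with ATTGG at such a position was not counted, so this count has no background. The interferon-stimulated response element core was in 4 of the 20, B2m, Erap1, H2-T22 and H2-T23, against 3.44% of all windows. These 4 were of class I, as were most of the 20. H2-K1 and H2-D1 had no match to this exact pattern, and looser forms of it were not searched. CCNAGNNAC was in 7 of the 20, against 17.3% of all windows. These matches describe letters in a window and were not tested as binding sites.

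Class I genes also share coding sequence, which limits how reads can be placed among them. The stretch below is from exon 4 of H2-K1, which encodes the alpha 3 domain (GRCm38 chr17:33997449-33997498, minus strand), and it is printed because transcripts of 15 other genes carry the same 50 bases.
H2-K1 exon 4: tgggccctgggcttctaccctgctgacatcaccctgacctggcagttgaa
Of the 16 genes that carry it 8 are members with at least 10 counts: H2-K1, H2-D1, H2-K2, H2-Q2, H2-Q10, H2-T22, H2-T23 and H2-T24. Over whole transcripts, 8 of the 29 members had more than 20% of their 50-base words in common with other genes, and 5 had none in common. B2m, Cd74, H2-Ab1 and H2-Eb1 were at 0%, H2-K1 was at 9.63% and H2-D1 at 12.8%.

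The labels and the tissue were checked first. The targeted gene, named H3f4 in the table, had 0, 0 and 0 counts in the H3t deletion libraries, against 390, 571 and 356 counts in the WT libraries. Totals were 8315960 to 8988520 counts in the deletion and 8037826 to 10702930 in WT, and 1 count was worth 0.0904 to 0.156 CPM. CPM values are counts relative to the library total after TMM scaling, which sets libraries to a common level of most genes. The sum of 8 spermatid genes was 64.1, 21.9 and 5.72 CPM in the H3t deletion libraries 1, 2 and 3, against 20470, 21560 and 22350 CPM in WT. All 24 Sertoli cell markers and all 12 Leydig cell markers were called higher in the deletion and were counted in both groups. All 8 spermatid genes were called lower. Over all genes tested 38.4% were called higher and 46.1% lower. Mitochondrial genes took 21.6% to 22.7% of counts in the deletion and 5.59% to 6.44% in WT. In bulk tissue, fewer cells of a type and less RNA per cell cannot be told apart.

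Antigen presentation transcripts were higher in the H3t deletion testes across both classes with TMM scaling. Of the 29 members 22 passed the filter on low counts and were tested, and 19 of them were called higher and 0 lower by edgeR's quasi-likelihood F test (Benjamini-Hochberg adjustment over all genes, threshold 0.05). Over all 17038 genes tested, 84.5% were called, 38.4% higher and 46.1% lower. The median log2 change of the tested members was 2.61, and that of all genes tested was -0.19. On the class I side 14 of 15 tested members were called higher, with a median of 2.57, and on the class II side 5 of 7, with a median of 3.89. Without deletion replicate 1 these medians were 2.24 and 2.83. Taking H2-Q10, at 0 counts in WT, at its bound left these medians at the same values. A member with low WT counts could pass the filter through its deletion level alone, so these counts describe the members and are not support for a direction.

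These values depend on how libraries are scaled. Over all genes the median was -0.36 under median-of-ratios scaling, 0.35 under upper-quartile scaling and 0.45 without a factor. The share of higher calls among all calls was 45.4% under TMM, 55.1% under upper-quartile scaling and 56.6% without a factor. When libraries were instead set to an equal mean log2 level of 24 Sertoli markers (Sertoli level), 9 members were called higher and 4 lower, against 4.8% and 75.5% of all genes. Set to an equal mean log2 level of 24 macrophage markers (macrophage level), 10 were called higher and 4 lower, against 5.65% and 73.9% of all genes. Those called lower at macrophage level were Tapbp, H2-DMa, H2-DMb1 and Nlrc5. Those called higher were B2m, Erap1, Tap2, H2-D1, H2-T23, H2-Q10, Cd74, H2-Aa, H2-Eb1 and Ciita. Neither level makes each marker of its list equal. At Sertoli level 7 of the 24 Sertoli markers were still called higher and 5 lower, with a median of 0.14. At macrophage level 11 of the 24 macrophage markers were still called higher and 2 lower, with a median of 0.87. The macrophage list holds Aif1, which was at -5.74 with TMM scaling. With Aif1 left out of the list, a choice made after its values were seen, 8 members were called higher and 5 lower, against 2.8% and 79.2% of all genes. Erap1 and H2-D1 then lost their call, at 0.22 and 0.28, and H2-K1 was called lower, at -0.51. With no filter beyond 1 count, where all 29 members were tested, 22 were called higher and 1, H2-M6-ps, lower, against 22.7% and 31.8% of 31460 genes. Without deletion replicate 1, 18 were called higher and 1, Nlrc5, lower, against 35.7% and 46.5% of 17802 genes.

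**Figure D1:**
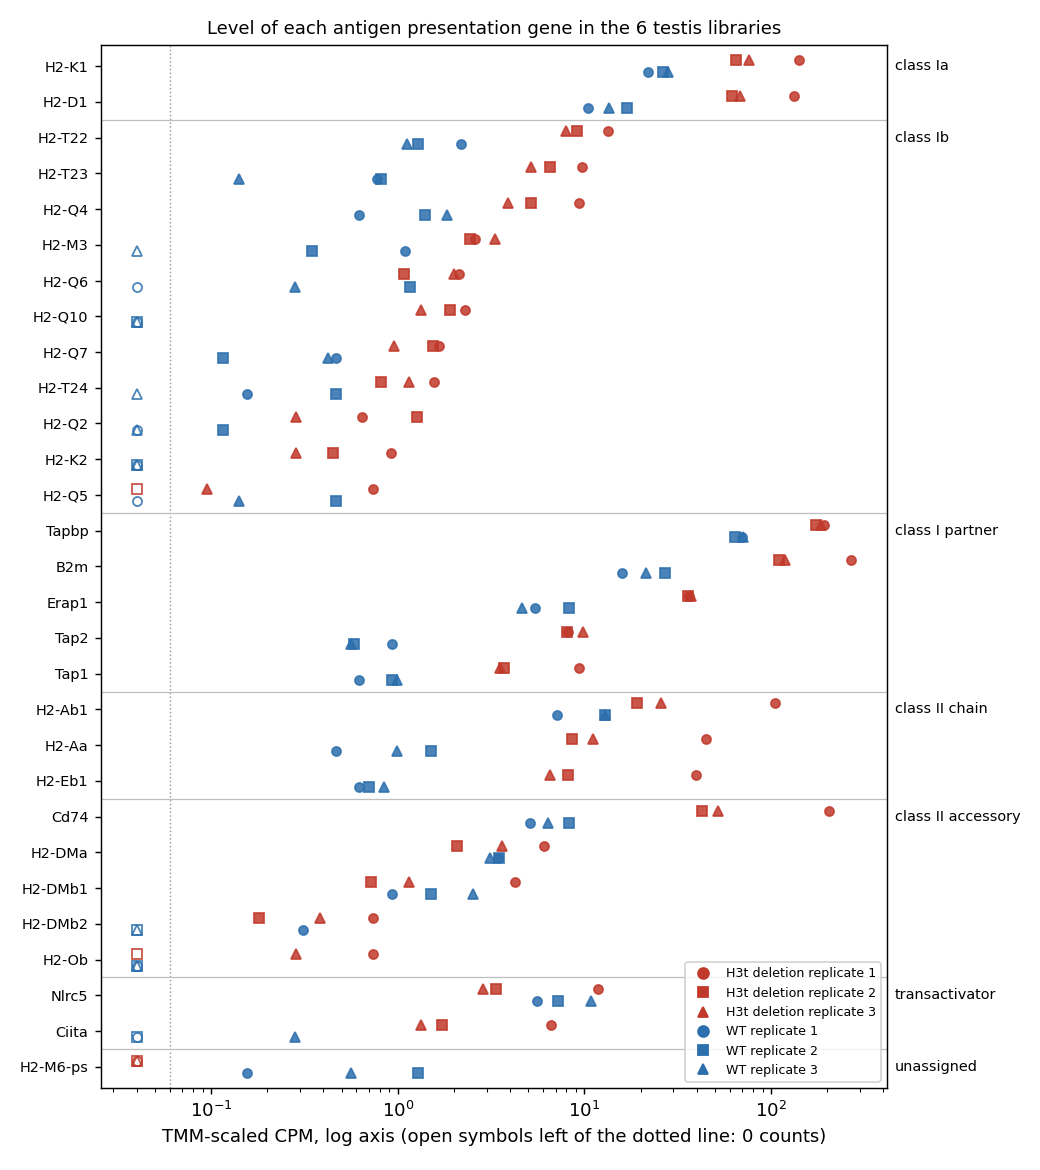
TMM-scaled CPM (log axis) of the 29 members in each library, H3t deletion replicates in red above WT replicates in blue, with open symbols for 0 counts. The deletion libraries lie above WT without overlap for 21 members, and for class II genes the circle of deletion replicate 1 stands to the right of the other deletion libraries.

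The groups did not overlap, with the deletion higher, for 21 of the 29 members, among them 16 of 19 on the class I side and 5 of 9 on the class II side. Over all genes tested that share was 39.2%. The plot of levels in each library shows that deletion replicates 2 and 3 lay close together for most members, and that replicate 1 lay above them for the class II genes.

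The classical (class Ia) heavy chains H2-K1 and H2-D1, which present peptides to CD8 T cells, had the highest mean CPM of the class I heavy chains in both groups. H2-K1 (GRCm38 chr17:33996017-34000347) was at 140.3, 64.7 and 76.3 CPM in the 3 deletion libraries (replicates 1, 2 and 3, in this order throughout), against 21.9, 26.5 and 28.2 CPM in WT. H2-D1 (chr17:35262730-35267499) was at 132, 61.8 and 68.1 CPM in the deletion, against 10.4, 17.0 and 13.5 CPM in WT. For both genes every deletion library was above every WT library, and replicate 1 was 1.99 and 2.03 times the mean of the other deletion libraries. The log2 change of H2-K1 was 1.87 (SE 0.23, adjusted p = 2.04e-06, edgeR's quasi-likelihood F test, Benjamini-Hochberg adjusted), and it turned to -0.21 at Sertoli level and -0.17 at macrophage level, where it was not called, and was called lower, at -0.51, with Aif1 left out of the macrophage list. H2-D1 had a log2 change of 2.66 (SE 0.26, adjusted p = 1.52e-07, same test), and it was still called higher at Sertoli level, at 0.59, and at macrophage level, at 0.61, but not with Aif1 left out of the macrophage list, at 0.28. Per length, H2-K1 averaged 31.9 RPKM (CPM per kilobase of exon) in the deletion and 8.70 in WT, and H2-D1 averaged 33.8 RPKM in the deletion and 5.29 in WT.

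The 11 class Ib genes are less variable heavy chains with more special ligands, apart from H2-K2 and H2-Q5, annotated as pseudogenes. Of the 11, 7 were tested and all 7 were called higher with TMM scaling, where 38.4% of all genes were. At Sertoli level 2 were called higher, against 4.8% of all genes, and at macrophage level 2, against 5.65%. H2-T22, a ligand of some gamma delta T cells, was at 13.4, 9.13 and 8.01 CPM in the deletion, against 2.18, 1.28 and 1.13 CPM in WT, although 53.5% of its 50-base words occur in other genes, mostly H2-T10. H2-T23 (Qa-1), which shows leader peptides of other class I chains to CD94/NKG2 receptors of NK cells, was at 9.76, 6.51 and 5.15 CPM in the deletion, against 0.778, 0.814 and 0.141 CPM in WT. Both genes separated the groups, by log2 changes of 2.75 (SE 0.36) and 3.58 (SE 0.49), with adjusted p of 3.27e-06 and 6.37e-06 by edgeR's quasi-likelihood F test, Benjamini-Hochberg adjusted. H2-Q4 was at 9.30, 5.15 and 3.91 CPM in the deletion, against 0.623, 1.40 and 1.83 CPM in WT, with 36.4% of its words shared. H2-M3, which binds N-formylated peptides, was at 2.58, 2.44 and 3.34 CPM in the deletion, against 1.09, 0.349 and 0 CPM in WT. The groups did not overlap for either, and the log2 changes were 2.22 (SE 0.46, adjusted p = 0.000352) and 2.57 (SE 0.67, adjusted p = 0.00235) by the same edgeR test. The change of H2-M3 was 3.77 without WT replicate 1 and 1.97 without WT replicate 3.

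The other class Ib genes were near the limit of detection. H2-Q10 had 25, 21 and 14 counts in the deletion and 0 in every WT library, which makes it at least 13.6-fold higher with a floor of 3 counts over the WT group. H2-Q7 was called higher at a log2 change of 2.06, and H2-Q6 at 1.70, with overlapping groups. H2-Q7 was not called with DESeq2, at 1.91 (adjusted p = 0.0534), with a block of adjacent mouse numbers, at 1.62 (adjusted p = 0.127, edgeR), or at Sertoli and macrophage level, at 0.01 and 0.11. H2-Q6 was not called with DESeq2 either, at 1.61 (adjusted p = 0.0914). H2-Q6 turned to -0.33 at Sertoli level and -0.31 at macrophage level, and its call was lost without deletion replicate 1 or 3 or WT replicate 1 or 3, at 1.55, 1.60, 1.16 and 1.39, while without WT replicate 2 it was at 3.43. H2-K2 had 0 WT counts and was at least 4.08-fold higher, and H2-Q2 had 24 counts in the deletion and 1 in WT, a ratio of 16.4 with a 95% counting interval of 2.67 to 674. H2-T24 was higher in every deletion library and H2-Q5 overlapped. H2-K2, H2-Q2, H2-T24 and H2-Q5 did not pass the filter.

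The partners of class I, which supply beta-2-microglobulin and peptides, were all called higher in the deletion with TMM scaling, 5 of 5, against 38.4% of all genes. At Sertoli level B2m and Tap2 were still called higher, at 0.87 and 1.57, and at macrophage level B2m, Erap1 and Tap2, at 0.88, 0.56 and 1.68. Tapbp was called lower at both levels. B2m and Tap2 were still called higher with Aif1 left out of the macrophage list, at 0.54 and 1.34. B2m (chr2:122147686-122153083), the light chain of every class I molecule, was at 269, 109.6 and 119 CPM in the deletion, against 15.9, 26.9 and 21.4 CPM in WT. Tapbp (tapasin, chr17:33915899-33929292), which bridges empty class I molecules to TAP, was at 193, 175 and 186 CPM in the deletion, against 69.6, 64.1 and 70.5 CPM in WT. Replicate 1 was high for B2m, whereas the 3 deletion libraries lay within 1 narrow band for Tapbp. The log2 change of B2m was 2.94 (SE 0.30, adjusted p = 2.00e-07) and that of Tapbp 1.44 (SE 0.09, adjusted p = 5.98e-10), by edgeR's quasi-likelihood F test, Benjamini-Hochberg adjusted. At Sertoli and macrophage level Tapbp turned to -0.66 and -0.55. Of its exonic bases 24.9% overlap another gene on the other strand and 4.11% on the same strand. The overlapping genes are Zbtb22 and Gm19412, so their reads and those of Tapbp may not be separated.

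Erap1, the aminopeptidase that trims peptides in the endoplasmic reticulum, was at 36.5, 35.7 and 37.2 CPM in the deletion, against 5.45, 8.26 and 4.65 CPM in WT. Tap2, a subunit of the peptide transporter, was at 8.20, 8.05 and 9.82 CPM in the deletion, against 0.934, 0.581 and 0.564 CPM in WT. Tap1, the other subunit, was at 9.39, 3.71 and 3.53 CPM in the deletion, against 0.623, 0.930 and 0.987 CPM in WT. Tap2 was even across the deletion libraries, and its partner Tap1 was high in replicate 1. The log2 changes were 2.55 (SE 0.20, adjusted p = 8.49e-09) for Erap1, 3.65 (SE 0.38, adjusted p = 2.62e-07) for Tap2 and 2.68 (SE 0.51, adjusted p = 0.000162) for Tap1, by edgeR's quasi-likelihood F test, Benjamini-Hochberg adjusted. Without deletion replicate 1 Tap1 was at 2.07, and Tap2 and Erap1 were at 3.69 and 2.56. Tap1 was not called at Sertoli or macrophage level, at 0.62 and 0.63, and Erap1 was not called at Sertoli level, at 0.47.

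The class II chains H2-Aa, H2-Ab1 and H2-Eb1 were all called higher with TMM scaling, where 38.4% of all genes were. Their median log2 change was 4.36, the highest among the roles with at least 3 tested members. The size of that rise rested in part on 1 library. H2-Ab1 (chr17:34257689-34269419), a beta chain, was at 104, 19.2 and 25.6 CPM in the deletion, against 7.16, 12.9 and 12.8 CPM in WT. H2-Aa (chr17:34282744-34287823), its alpha chain, was at 44.8, 8.59 and 11.2 CPM in the deletion, against 0.467, 1.51 and 0.987 CPM in WT. H2-Eb1 (chr17:34305867-34316674), the beta chain of the E molecule, was at 39.4, 8.14 and 6.58 CPM in the deletion, against 0.623, 0.698 and 0.846 CPM in WT. The groups did not overlap for any of the 3 genes, and replicate 1 was 4.53 to 5.36 times the mean of replicates 2 and 3. H2-Ea, the alpha chain of the E molecule, is annotated as a polymorphic pseudogene and had 0 counts in all 6 libraries.

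By edgeR's quasi-likelihood F test, Benjamini-Hochberg adjusted, H2-Ab1 had a log2 change of 2.16 (SE 0.50, adjusted p = 0.000878), H2-Aa of 4.36 (SE 0.66, adjusted p = 1.55e-05) and H2-Eb1 of 4.62 (SE 0.73, adjusted p = 2.52e-05). Without deletion replicate 1 these were 1.03, 3.26 and 3.33, and all 3 were still called. At macrophage level H2-Aa and H2-Eb1 were still called higher, at 2.27 and 2.52, while H2-Ab1 was at 0.05 and not called. At Sertoli level H2-Aa and H2-Eb1 were likewise called higher, at 2.32 and 2.57, and H2-Ab1 was at 0.11 and not called. Per length, H2-Ab1 averaged 19.4 RPKM in the deletion and 4.27 RPKM in WT. Its partner H2-Aa averaged 5.66 RPKM in the deletion and 0.260 RPKM in WT, below H2-Ab1 in both groups.

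Among the class II accessory genes only Cd74 of 3 tested was called. Cd74, the invariant chain, was at 204, 42.6 and 51.7 CPM in the deletion, against 5.14, 8.26 and 6.34 CPM in WT. Its log2 change was 3.89 (SE 0.53, adjusted p = 5.18e-06, edgeR's quasi-likelihood F test, Benjamini-Hochberg adjusted), and 2.83 without deletion replicate 1. At Sertoli and macrophage level Cd74 was at 1.832 and 1.785, still called higher. H2-DMa, 1 chain of the peptide exchange factor H2-DM, was at 6.08, 2.08 and 3.62 CPM in the deletion, against 3.42, 3.49 and 3.10 CPM in WT. H2-DMb1, a beta chain of H2-DM, was at 4.24, 0.723 and 1.14 CPM in the deletion, against 0.934, 1.51 and 2.54 CPM in WT. The groups overlapped for H2-DMa and H2-DMb1, with log2 changes of 0.23 (SE 0.41, adjusted p = 0.602) and 0.29 (SE 0.63, adjusted p = 0.676) by the same edgeR test. Both turned negative without deletion replicate 1, to -0.22 and -0.82, and both were called lower at Sertoli and macrophage level. Of the exonic bases of H2-DMa 10.4% overlap Brd2 on the other strand, and 22.65% of the 50-base words of H2-DMb1 occur in H2-DMb2. Reads of these genes may therefore not be separated. H2-DMb2, another beta chain, had 14 counts in the deletion and 2 in WT, a ratio of 4.78 with a 95% counting interval of 1.10 to 43.3. That interval leaves out the spread between libraries: the counts were 8, 2 and 4 in the deletion, against 2, 0 and 0 in WT, and the groups overlapped. With no filter beyond 1 count H2-DMb2 was not called, at 2.045 (SE 1.515, adjusted p = 0.256, same edgeR test). H2-Ob, part of the H2-DM inhibitor H2-O, was counted in deletion replicates 1 and 3 only and was at least 2.51-fold higher. At 11 counts H2-Ob was the lowest member analysed, and H2-M5 and H2-Bl, just outside, had 9 each.

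Of the transactivators, Ciita was called higher and Nlrc5 was not called. Ciita (chr16:10480059-10528418), which drives class II genes, had 72, 19 and 14 counts in the deletion, against 0, 0 and 2 counts in WT, a ratio of 35.8 with a 95% counting interval of 9.68 to 299.8. Its log2 change was 4.96 (SE 1.0, adjusted p = 0.000281, edgeR's quasi-likelihood F test, Benjamini-Hochberg adjusted), 3.88 without deletion replicate 1, 4.30 without WT replicate 2 and 7.91 without WT replicate 3. Nlrc5 (chr8:94434356-94527272), which drives class I genes, was at 11.8, 3.35 and 2.86 CPM in the deletion, against 5.60, 7.21 and 10.9 CPM in WT. The Nlrc5 groups overlapped through replicate 1 alone: the log2 change was -0.40 (SE 0.45, adjusted p = 0.420, same test), and -1.33 without deletion replicate 1 (adjusted p = 0.00242), called lower, while it was at 0.13 under upper-quartile scaling and 0.23 without a factor. So in deletion replicates 2 and 3 H2-K1 and H2-D1 were above every WT library and Nlrc5 was below every WT library. H2-M6-ps, a pseudogene, had 0 counts in every deletion library, against 1, 11 and 4 counts in WT, at least 7.20-fold lower in the deletion, and was the only analysed member with every deletion library below every WT library, a pattern seen in 46.7% of all genes tested.

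**Figure D2:**
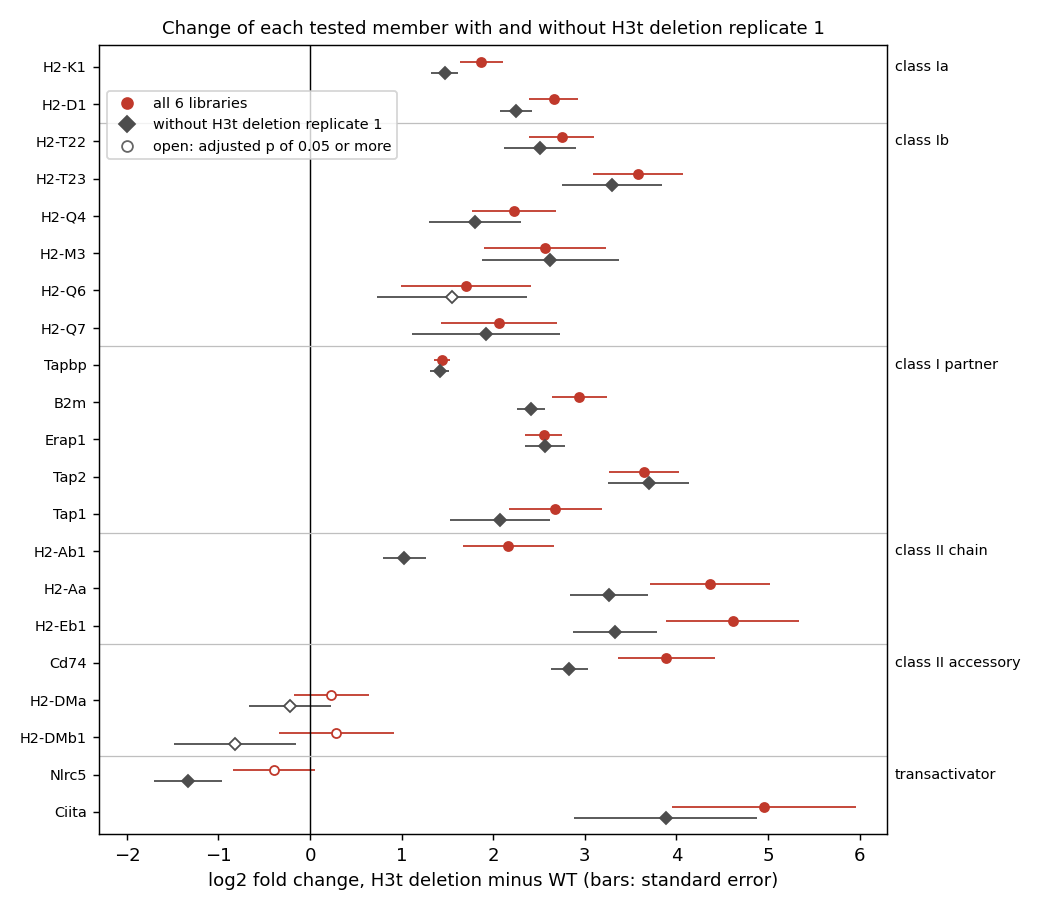
Log2 fold change (H3t deletion minus WT, bars show the standard error) of 21 of the 22 tested members with all 6 libraries (red circles) and without deletion replicate 1 (grey diamonds); open symbols have an adjusted p of 0.05 or more, and H2-Q10, at 0 counts in WT, is not drawn. The class II chains, Cd74 and Ciita lie between 2.16 and 4.96 with all libraries and between 1.03 and 3.88 without replicate 1, while Tapbp goes only to 1.42, Erap1 to 2.56 and Tap2 to 3.69.

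Deletion replicate 1 stood apart in these genes. Of 23 members with a deletion mean of at least 1 CPM, 9 were at least 2 times higher in replicate 1 than in both other deletion libraries, against 1.57% of 13806 genes at that level. These were 6 of 7 class II members (Cd74, H2-Ab1, H2-Aa, H2-Eb1, H2-DMb1 and Ciita) and 3 of 16 class I members (B2m, Tap1 and Nlrc5). At 3 times, the counts were 6 of 7 and 1 of 16, against 0.449% of all genes. The ratio of replicate 1 to the mean of the other deletion libraries had a median of 4.53 over class II (2.13 to 5.36), of 1.58 over class I (0.893 to 3.80) and of 1.05 over all genes. Tap2, Tapbp and H2-M3 were at 0.918, 1.07 and 0.893.

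**Figure D3:**
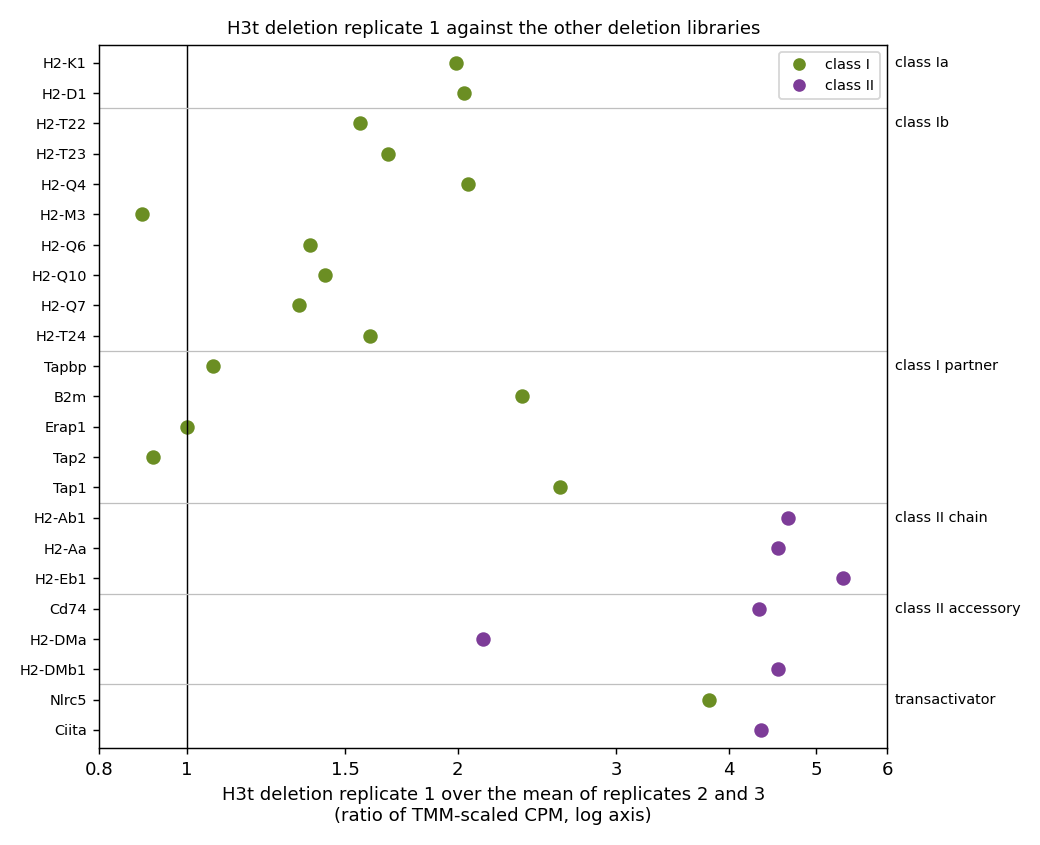
Ratio of the TMM-scaled CPM of H3t deletion replicate 1 to the mean of replicates 2 and 3 (log axis) for the 23 members with a deletion mean of at least 1 CPM, class I in green and class II in purple. Class II members lie between 2.13 and 5.36, and class I members between 0.893 and 3.80, with Nlrc5 the highest.

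Markers of other cell types were read in the same libraries. None of 24 macrophage markers reached 2 times the other deletion libraries in replicate 1, and their summed level was 863, 719 and 758 CPM in the deletion, against 550, 476.5 and 529.9 CPM in WT, where Aif1 alone gave 398, 322 and 374 CPM. Of these markers 22 were called higher with TMM scaling and 1, Aif1, lower. For this and the next lists the share over all genes was 38.4% higher and 46.1% lower. Dendritic cell markers summed to 82.6, 66.5 and 64.8 CPM in the deletion, against 16.2, 21.7 and 22.4 CPM in WT, with 3 of 5 tested called higher and 0 of those 5 at 2 times in replicate 1. Not tested, Xcr1 was at 2.03, 0.181 and 0.953 CPM in the deletion, against 0, 0 and 0.282 CPM in WT, and Siglech, a marker of plasmacytoid dendritic cells, was at 1.93, 0.181 and 0.763 CPM in the deletion, against 0, 0.116 and 0 CPM in WT. Both were highest in replicate 1. Of 9 B cell markers 2 were tested, Ighm was called higher and Pax5 lower, and Cd79a was at 0 in the deletion. They summed to 17.3, 7.96 and 6.39 CPM in the deletion, against 24.4, 15.8 and 10.4 CPM in WT. The immunoglobulin light chain gene Igkc, not tested, was at 3.87, 0 and 0.191 CPM in the deletion and at 0 in every WT library. Of 15 T and NK cell markers 6 were tested, with Cd4 and Trac called higher and 3 lower. Cd4 was at 7.74, 1.18 and 2.76 CPM in the deletion, against 1.71, 1.16 and 0.423 CPM in WT. Cd3g, not tested, was at 3.32, 0.452 and 0.667 CPM in the deletion and at 0 in every WT library, so that it too was highest in replicate 1. The 15 markers summed to 16.0, 6.51 and 9.34 CPM in the deletion, against 12.1, 12.1 and 10.6 CPM in WT, with Ncr1 and Klrd1 at 0 in every library and Cd3d at 0 in the deletion. Of 9 endothelial markers 6 were called higher, and 2 were at least 2 times higher in replicate 1 than in both other deletion libraries. So were 6 of 7 spermatid genes, against 1.57% of all genes. At Sertoli level 9 macrophage markers were called higher and 2 lower. Those counts were 1 and 2 for dendritic and 0 and 4 for endothelial markers, against 4.8% and 75.5% of all genes. The summed levels of these lists were highest in replicate 1 among the deletion libraries, those of B, T and NK cells at low levels. The part of any of these cells in the result was not tested.

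Within a library no scaling between libraries enters, so the classes were also set against each other there. Summed class I heavy chains were at 115.5, 57.1 and 62.7 RPKM in the deletion, against 13.6, 18.2 and 16.3 RPKM in WT. Summed class II chains were at 72.7, 13.9 and 16.3 RPKM in the deletion, against 3.23, 5.78 and 5.69 RPKM in WT. Class I exceeded class II in every library. The log2 ratio of class I to class II was 0.67, 2.04 and 1.94 in the deletion, against 2.07, 1.65 and 1.51 in WT, with means of 1.55 ± 0.76 in the deletion and 1.75 ± 0.29 in WT (SD, n = 3 each). The difference of -0.20 was smaller than the spread between the deletion libraries and turned to 0.24 without deletion replicate 1. In WT the class II sum was mostly H2-Ab1, with means of 4.27 RPKM for H2-Ab1 and 4.90 RPKM for the sum. The ratio therefore does not describe each chain. With TMM scaling and without deletion replicate 1, H2-Aa and H2-Eb1 rose by 3.26 and 3.33, more than H2-K1 and H2-D1, at 1.47 and 2.24. H2-Ab1 rose less than these, by 1.03. A ratio without H2-Ab1 was not tested.

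**Figure D4:**
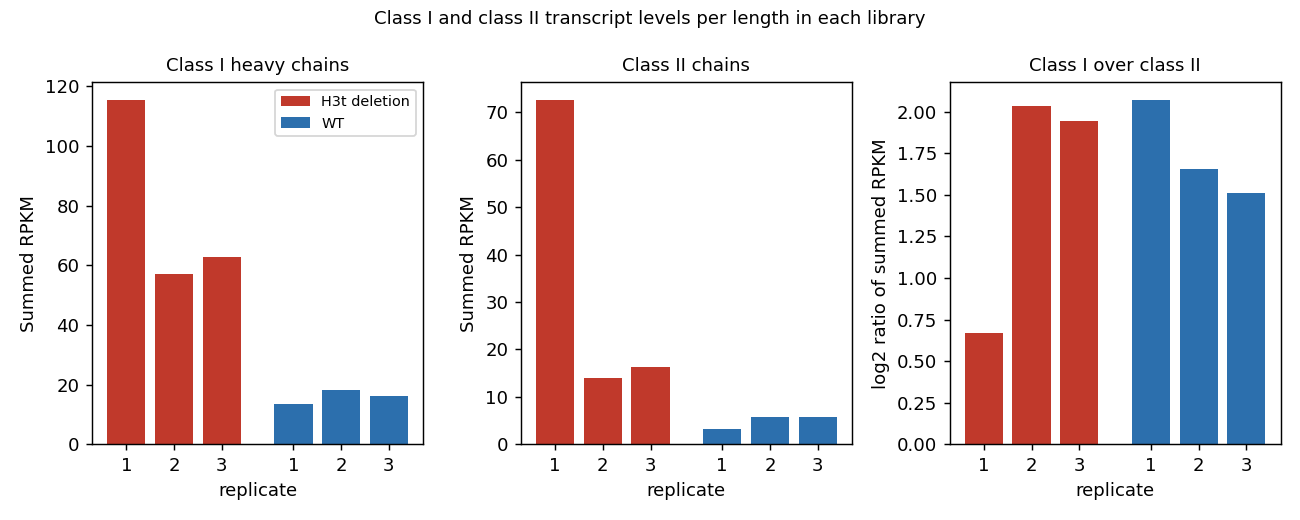
Summed RPKM of class I heavy chains (left) and class II chains (middle), and the log2 ratio of these sums (right), in each library, H3t deletion in red and WT in blue. Deletion replicate 1 reaches 115.5 and 72.7 RPKM, and its log2 ratio of 0.67 is the lowest of the 6.

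The proportion of partners to their chains was read in the same way, as values with no test. The log2 ratio of B2m to summed class I heavy chains, per length, was 1.44, 1.16 and 1.14 in the deletion, against 0.44, 0.78 and 0.62 in WT. That of Cd74 to summed class II chains was 0.74, 0.87 and 0.92 in the deletion, against -0.08, -0.23 and -0.59 in WT. Both ratios were higher in every deletion library than in every WT library, by 0.63 and 1.14 on average. The Cd74 ratio rests on a sum that was mostly H2-Ab1 in WT and does not hold for each chain. With TMM scaling the log2 change of Cd74, 3.89, was above that of H2-Ab1, 2.16. It was below those of H2-Aa, 4.36, and H2-Eb1, 4.62. The log2 ratio of H2-DMa to H2-Ab1 was -4.53, -3.63 and -3.25 in the deletion, against -1.49, -2.31 and -2.47 in WT, and that of Tapbp to class I heavy chains was -1.12, -0.25 and -0.29 in the deletion, against 0.50, -0.04 and 0.26 in WT. These ratios were lower in every deletion library than in every WT library. Deletion replicates 2 and 3 shared with replicate 1 the higher proportion of B2m and, against the summed class II chains only, of Cd74.

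The classes were also set against macrophage markers within each library. The mean log2 CPM (with 0.1 added) of H2-K1 and H2-D1 minus that of the macrophage list was 2.91, 2.18 and 2.33 in the deletion, against 2.05, 2.80 and 2.45 in WT, a difference in means of 0.03, and of -0.31 with Aif1 left out of the list. The same measure for the class II chains was 1.65, -0.33 and -0.21 in the deletion, against -1.35, -0.25 and -0.60 in WT. The difference in means for the class II chains was 1.11, and 0.76 without Aif1. The groups overlapped in both measures. With all 24 markers the class II values of deletion replicates 2 and 3 lay on either side of that of WT replicate 2, and that of replicate 1 lay above all others.

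Other genes of the pathway came from lists of their known roles, and their direction also rests on the scaling. Of 12 tested genes of class I peptide supply 5 were called higher and 3 lower with TMM scaling, against 38.4% and 46.1% of all genes, with a median log2 change of 0.04. At Sertoli level 1, Psme1, was called higher and 7 lower, against 4.8% and 75.5% of all genes. Lnpep, a peptide-trimming aminopeptidase, rose by 1.88 with TMM but was at -0.21 at Sertoli level. Calr, a chaperone of new class I chains, fell by 0.54 with TMM and was at 0.10 without a factor. Sec61a1, of the translocation channel, fell by 0.22 with TMM and was at 0.33 under upper-quartile scaling. Named after their values were seen, the interferon-inducible proteasome genes Psmb8, Psmb10, Psme1 and Psme2 rose by 2.92, 2.41, 2.81 and 2.40 with TMM and were at 0.85, 0.35, 0.70 and 0.32 at Sertoli level, where Psmb8, Psmb10 and Psme2 were not called. Psmb8 was at 14.9, 5.43 and 4.48 CPM in the deletion, against 1.09, 1.16 and 0.987 CPM in WT. Psme2 was at 19.8, 21.6 and 21.8 CPM in the deletion, against 2.65, 4.65 and 4.51 CPM in WT. Psmb8 was thus highest in replicate 1, and Psme2 was even across the deletion libraries.

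Of 11 tested genes of class II loading 10 were called higher and 1, Lamp1, lower, with a median of 2.41, against 38.4% and 46.1% of all genes, and at Sertoli level 4 were called higher and 3 lower, against 4.8% and 75.5%. Of the cathepsins, lysosomal proteases, Ctsb rose by 2.72, and Ctsl rose by 1.64 with TMM but was at -0.46 at Sertoli level. Lamp1, a lysosomal membrane protein, fell by 0.90. None of the 11 was 2 times higher in deletion replicate 1 than in both other deletion libraries. Of 10 tested genes of MHC transcription 6 were called higher and 2 lower with TMM, against 38.4% and 46.1% of all genes, with a median of 0.53. At Sertoli level all 10 were called lower, with a median of -1.57, where 75.5% of all genes were called lower with a median of -2.28 over all genes. The acetyltransferases Crebbp, Ep300 and Kat2b rose by 0.59, 0.53 and 0.81 with TMM and were at -1.51, -1.57 and -1.29 at Sertoli level. Rfx5 and Rfxap, subunits of the factor that binds the X box, named after their values were seen, fell by 0.48 and 0.79 with TMM, and Rfx5 was at 0.06 under upper-quartile scaling.

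Of 4 tested genes with an MHC fold all 4 were called higher with TMM, against 38.4% of all genes, with a median of 2.64. At Sertoli level 2 were called higher, against 4.8% of all genes, with a median of 0.58. Fcgrt, the neonatal Fc receptor, and Mr1, which presents vitamin metabolites, rose by 2.92 and 2.71 with TMM. At Sertoli level Fcgrt and Mr1 were at 0.83 and 0.64, still called higher. Hfe, which takes part in iron control, rose by 1.88 with TMM but was at -0.21 at Sertoli level. Of 3 tested costimulation genes 2 were called higher with TMM, against 38.4% of all genes. These were Icosl and Cd86, ligands that costimulate T cells, at 2.64 and 2.61, and neither was called at Sertoli level. Cd274 (PD-L1) was at -0.01 with TMM and was called lower at Sertoli level, at -2.09, as were 75.5% of all genes.

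Interferon gamma signalling genes were called higher in 15 of 16 tested with TMM, with a median of 2.70, against 38.4% of all genes called higher, while at Sertoli level 5 were called higher and 3 lower, against 4.8% and 75.5%. Of the kinases of the receptor, Jak1 rose by 2.10 and Jak2 by 2.48 with TMM, and neither was called at Sertoli level, at 0.02 and 0.40. The receptor chain Ifngr2 rose by 0.97 with TMM but was at -1.12 at Sertoli level. In deletion replicate 1, 7 of the 16 were at least 2 times higher than in both other deletion libraries, against 1.57% of all genes. Iigp1, an interferon-inducible GTPase named after its values were seen, was at 62.7, 8.59 and 7.82 CPM in the deletion, against 1.87, 2.79 and 0.705 CPM in WT. Irf1, a transcription factor that interferon gamma induces, named likewise, was at 26.8, 11.8 and 11.2 CPM in the deletion, against 0.467, 1.28 and 1.27 CPM in WT. Gbp2, another inducible GTPase named likewise, was at 27.7, 6.15 and 8.48 CPM in the deletion, against 2.02, 1.63 and 2.40 CPM in WT. Irgm1, Irgm2, Gbp4 and Igtp completed the 7, and all 7 had their highest value in replicate 1. Receptor and kinase genes did not reach that mark, with ratios of replicate 1 to the mean of the others of 1.06 for Jak1, 1.22 for Ifngr2 and 0.976 for Jak2. Ifng itself was at 0.184 CPM in deletion replicate 1 and had 0 counts in the other 5 libraries, which is at the limit of detection.

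Of the 24 members not analysed, 12 had 0 counts in every library, among them H2-M2, H2-M10.1, H2-Q3 and H2-Pa, and 12 had 1 to 9 counts. For a gene at 0 counts these totals allow up to 0.0926 CPM over the deletion group and up to 0.136 CPM over the WT group, with a floor of 3 counts per group.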

How the data were processed

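Per the labels' protocols, RNA of each testis cryosection sample was made into 1 SMART-Seq Stranded library. The authors deposited raw counts per Ensembl gene, for which the submitters' processing notes name Trim Galore, HISAT2, featureCounts and GRCm38. Tool versions, annotation release, strand and multimapping settings were not given in the sources used here. The spatial data were not analysed here.

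Libraries were grouped by genotype. The labels give each sample a number but do not state separate mice, so p-values measure only the spread between these samples. Chi-square per degree of freedom was 4.75 to 7.32 within groups, so none matched another within sampling noise. Counts were fitted in R 4.3.3 with edgeR 4.0.16 (filterByExpr, TMM, quasi-likelihood test, Benjamini-Hochberg adjustment at 0.05 over 17038 genes). The same fit was run on simulated counts in which few genes changed, up and down alike. That run does not check the scaling of data in which most genes are called. SE is the absolute log2 change over the square root of F. RPKM is TMM-scaled CPM per kilobase of union exons (GENCODE M21, which holds all 54100 genes). Words shared between genes are 50-mers on either strand. Intervals and floors (3 counts over a group) cover counting error only. Promoters are from RefSeq, GRCm38.p6.

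The members and lists were chosen with earlier results of these data known. By rule, up to 4 members per role with the highest mean CPM have values in every library, and up to 3 called genes per pathway list are named. Values for other members and genes were added after they were seen. Alternatives were other scalings and filters, DESeq2 1.42.0, a false discovery rate of 0.01, a replicate block and each library left out.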

Additional observations from a re-analysis of the deposited data

How the results depend on the processing

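The 19 members called higher were 18 with median-of-ratios scaling, 19 with upper-quartile or no scaling factor, 22 with no filter beyond 1 count or a filter of 10 counts, 17 with DESeq2, 18 at a false discovery rate of 0.01 and 18 to 20 with each library left out in turn. At Sertoli-level scaling they were 9 (5 of class I) and at macrophage-level scaling 10 (6 of class I), or 8 (4 of class I) with Aif1 left out of the list, chosen after seeing the data, against 14 of class I with TMM. With a replicate block of adjacent mouse numbers, without the library of mouse 900, 19 were called. The labels do not say that these numbers mark a shared litter or day. Of 374 values of members under the alternatives, 319 kept direction and side of the threshold, 28 lost the call, 4 gained it and 23 turned direction. At Sertoli and macrophage level Tapbp was at -0.66 and -0.55, H2-DMa at -1.85 and -1.80, H2-DMb1 at -1.77 and -1.78, H2-K1 at -0.21 and -0.17 and H2-Q6 at -0.33 and -0.31. With Aif1 left out of the macrophage list Tapbp was at -0.88, H2-DMa at -2.14, H2-DMb1 at -2.11, H2-K1 at -0.51, H2-Q6 at -0.65, H2-Ab1 at -0.28, H2-Q4 at -0.14 and H2-Q7 at -0.22. With each library left out H2-DMa ran from -0.22 to 0.55 and H2-DMb1 from -0.82 to 0.70, both lowest without deletion replicate 1, and H2-DMb1 was at -0.03 without WT replicate 1. Nlrc5 was at 0.13 with upper-quartile scaling and 0.23 with none. The class I to class II log2 ratio difference of -0.20 ran from -0.44 to 0.24 with each library left out. H2-Q7 lost its call with DESeq2, at 1.91, and with the replicate block, at 1.62. The causes were not tested. Depth, 8037826 to 10702930 counts, limits members with few counts, such as H2-Ob and H2-DMb2.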
